A study of Rattus norvegicus with 48 samples.

Results

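Of the 188 mature miRNAs measured in 4 segments of the rat nephron, 7 belong to the miR-10 and miR-196 families of the Hox gene clusters. They are both arms of miR-10a (rno-miR-10a-5p and rno-miR-10a-3p), both arms of miR-10b (rno-miR-10b-5p and rno-miR-10b-3p), and the 5p arms of miR-196a, miR-196b and miR-196c. All were taken by name, as every miRNA of the table whose name begins with miR-10a, miR-10b or miR-196. The tissue came from kidneys of 3 untreated male Sprague-Dawley rats aged 6 months, cut into frozen sections of 8 µm, from which cells were lifted by laser capture, and small RNA was sequenced as 50 bp reads. Collecting duct was recognised by aquaporin-2, the thick ascending limb, the part of Henle's loop that leads back to the cortex, by Tamm-Horsfall protein and proximal tubule by glutathione S-transferase, each by immunofluorescence. Glomeruli were picked by eye after a histochemical stain, so that stain and segment cannot be told apart where the glomerulus is compared with a tubule. Collecting duct, thick ascending limb and proximal tubule had 3 libraries each, from rats 1, 2 and 3. The glomerulus had 2, labelled rats 1 and 3, after the submitters removed 1 library, which was not analysed here. The removed library is also labelled rat 3, and no glomerulus library is labelled rat 2. Rats were taken as labelled, and comparisons of glomerulus within a rat rest on those labels.

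Hox genes encode transcription factors that set position along the body axis and help to pattern the urogenital tract. Genes of the miR-10 and miR-196 families lie between Hox genes in vertebrates, and Hox mRNAs are among the known targets of both families; in mouse embryos, miR-196 directs cleavage of the Hoxb8 mRNA. A miRNA hairpin yields a 5p and a 3p strand, of which usually 1 is kept in Argonaute as the guide, and the guide finds its targets mainly through its seed.

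The mature sequences show how close the family members are, which bears on how far their reads can be told apart. They are given 5′ to 3′ from RefSeq with the rat assembly GRCr8, where all 7 members had an entry, and capitals mark the seed, bases 2 to 8. The strands of miR-10a and miR-10b, and the related miR-100-5p, read as follows.
miR-10a-5p: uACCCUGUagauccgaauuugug
miR-10b-5p: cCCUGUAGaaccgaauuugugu
miR-10a-3p: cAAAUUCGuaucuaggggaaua
miR-10b-3p: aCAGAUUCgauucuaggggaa
miR-100-5p: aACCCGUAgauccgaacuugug

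The miR-196 strands are shown because they share 1 seed and differ outside it at a single base.
miR-196a-5p: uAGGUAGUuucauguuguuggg
miR-196b-5p: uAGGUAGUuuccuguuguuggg
miR-196c-5p: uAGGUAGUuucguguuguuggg

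With positions counted from 1 at the 5′ end of the miRNA named first, miR-10a-5p and miR-10b-5p matched at 20 of 21 aligned bases and differed by U12A. The entry for miR-10b-5p starts 2 bases later than that of miR-10a-5p, so the annotated seeds differ. The 2 hairpin bases before that start, UA, equal the start of miR-10a-5p, and a miR-10b-5p that began there would carry the miR-10a-5p seed, ACCCUGU. Among the 172 miRNAs of the table with an entry, ACCCUGU occurred in miR-10a-5p alone. The 3p arms differed at 3 of 20 aligned bases (A3G, U9A and A10U), so the pair that is nearly identical is the 5p pair. miR-196a-5p differed from miR-196b-5p by A12C and from miR-196c-5p by A12G, and miR-196b-5p from miR-196c-5p by C12G. How reads that match several of these strands were assigned is not given in the sources used here, and values of near-identical members are uncertain for that reason.

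In GRCr8, Mir10a lies on chromosome 10 between Hoxb5 and Hoxb4, and Mir196c on the same chromosome between Hoxb13 and Hoxb9. Mir10b lies on chromosome 3 within the span of Hoxd4. Mir196a lies on chromosome 7 between Hoxc10 and Hoxc9. Mir196b is on the minus strand of chromosome 4, between Hoxa9 and Hoxa10. The members thus cover the 4 Hox clusters.

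Values are the authors' TMM-normalised values, a read count scaled so that libraries can be compared, averaged over the 4 flow cells on which each library was run. The reads behind the 188 miRNAs, estimated from the steps between low values, numbered 147996 to 1296995 per library; rat 3 supplied both extremes, with its glomerulus the lowest and its thick ascending limb the highest. Of the marker miRNAs, the proximal tubule pair miR-192-5p and miR-194-5p summed to 1259 to 2340 in collecting duct, 2181 to 4280 in thick ascending limb, 21130 to 26367 in proximal tubule and 777 to 1424 in glomerulus. The endothelial miR-126a arms and the mesangial pair miR-143-3p and miR-145-5p were highest in glomerulus (4299 to 6290 and 10382 to 16388), against 1158 to 3170 and 4781 to 8080 in the tubule segments. Leukocyte markers, 2 of 4 in the table, summed to 73.0 to 118 in collecting duct, 25.1 to 39.0 in thick ascending limb, 24.1 to 51.6 in proximal tubule and 78.7 to 117 in glomerulus; no marker of red blood cells, muscle or liver is in the table. In such bulk libraries, fewer cells of a type and less of an RNA per cell cannot be told apart.

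rno-miR-10a-5p, the guide strand of the Hoxb cluster gene Mir10a, was the most abundant miRNA of all 11 libraries. Its level was 92719, 119558 and 81729 in the collecting duct of rats 1, 2 and 3, and 70201, 56313 and 85747 in the thick ascending limb. Proximal tubule held 37747, 39998 and 56750. Glomerulus held 37565 in rat 1 and 14049 in rat 3. Collecting duct libraries lay above every proximal tubule and glomerulus library and overlapped those of the thick ascending limb. The lowest thick ascending limb library (rat 2) lay just under the highest proximal tubule library (rat 3), while all libraries of both segments lay above the glomerulus libraries. In rat 1 that margin was small, at 37747 in proximal tubule against 37565 in glomerulus.

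**Figure D1:**
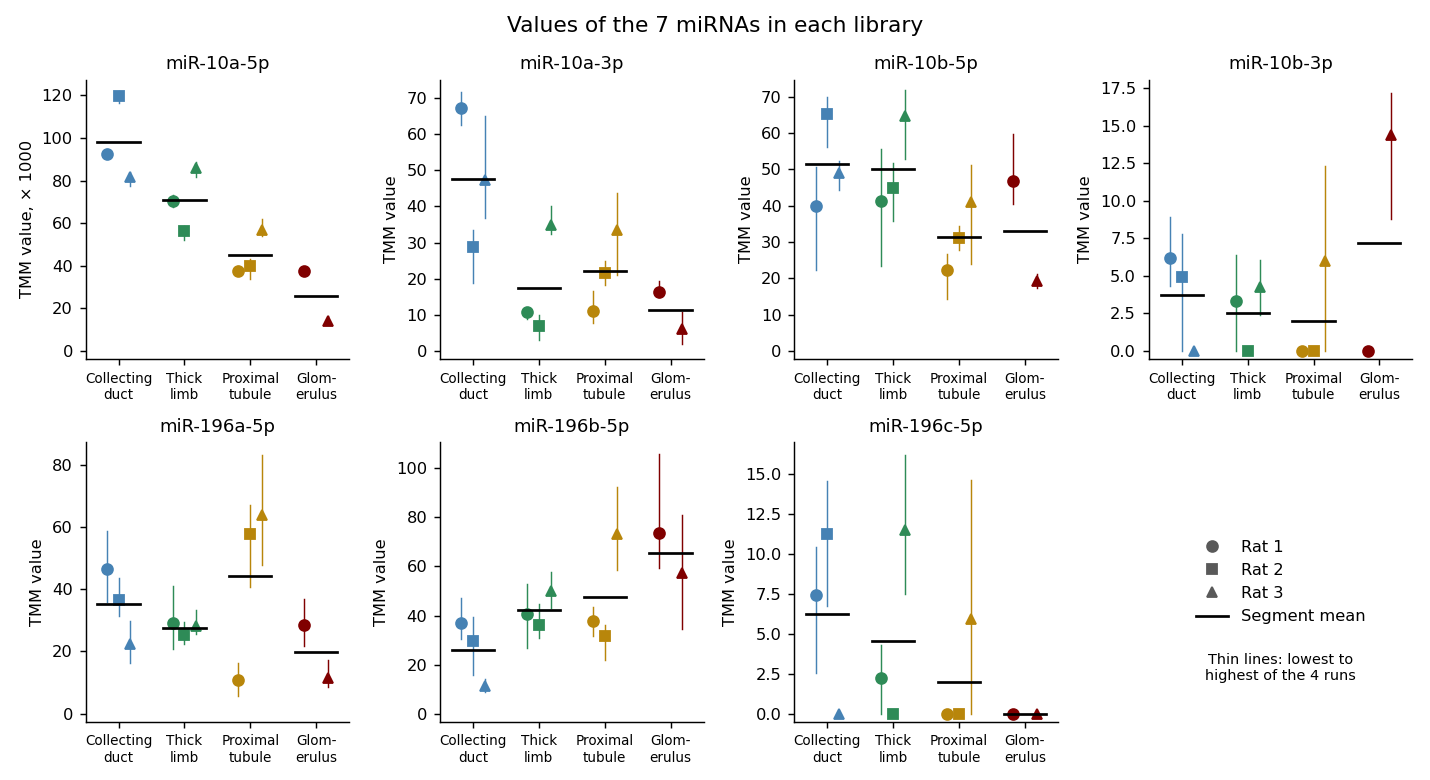
TMM-normalised value (vertical axes, from 0, each with its own range) of each of the 7 miRNAs in the 4 segments, with 1 symbol per library, shaped by rat, thin lines from the lowest to the highest of the 4 runs, and a black bar at the segment mean. By its mean miR-10a-5p is highest in collecting duct (81729 to 119558), which overlaps thick ascending limb, and lowest in glomerulus (14049 and 37565). miR-196b-5p is highest in glomerulus by its mean, and miR-196c-5p is 0 in both glomerulus libraries.

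By its mean level miR-10a-5p ran 98002 ± 19460 in collecting duct, 70754 ± 14725 in thick ascending limb, 44831 ± 10383 in proximal tubule (SD, n = 3 each) and 25807 ± 16628 in glomerulus (SD, n = 2). It differed among the 4 segments in limma's F-test with rat as a block (adjusted p = 0.0121 over all 188 miRNAs) and was the only member to do so, where 24.5% of all miRNAs were called. That call was lost without the collecting duct library of rat 3 (adjusted p = 0.0631) or that of the proximal tubule of rat 2 (adjusted p = 0.0953), and without a variance trend (adjusted p = 0.174).

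Between segments, miR-10a-5p rose in collecting duct over glomerulus by 2.10 ± 0.58 on the log2(value + 1) scale (SE; 95% interval 0.96 to 3.25; adjusted p = 0.00363). Of all miRNAs, 14.9% were called in that comparison and 11.2% were called higher. The size rested on the glomerulus library of rat 3, the shallowest of the series: the difference was 1.27 without it (adjusted p = 0.125) and 2.93 without that of rat 1. It was also higher in thick ascending limb than in glomerulus, by 1.63 ± 0.58 (95% interval 0.48 to 2.77; adjusted p = 0.0476), where 11.2% of all miRNAs were called and 7.98% called higher. Without the glomerulus library of rat 3 this difference was 0.80 (adjusted p = 0.304), and the call was lost with 8 of the 11 libraries left out in turn. The 4 remaining pairs did not pass. They were collecting duct over thick ascending limb (0.47 ± 0.51, adjusted p = 0.773), collecting duct over proximal tubule (1.14 ± 0.51, adjusted p = 0.136), thick ascending limb over proximal tubule (0.66 ± 0.51, adjusted p = 0.515) and proximal tubule over glomerulus (0.97 ± 0.58, adjusted p = 0.260). In these pairs 2.13%, 10.1%, 7.98% and 17.6% of all miRNAs were called. No neighbours in the order of mean levels therefore passed in this fit. Its SE comes from a variance shared by miRNAs of like abundance over all segments, not from the segments compared. The log2 SD of miR-10a-5p between rats was 0.28 in collecting duct, 0.30 in thick ascending limb and 0.32 in proximal tubule. In glomerulus that SD was 1.01.

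The size of these differences moved with the scaling between libraries. Summed values were lowest in the glomerulus of rat 3 (77457) and highest in the collecting duct of rat 2 (255518), and the median difference over all 188 miRNAs was 0.61 for collecting duct over glomerulus, 0.36 for thick ascending limb over glomerulus, -0.16 for collecting duct over proximal tubule and -0.37 for thick ascending limb over proximal tubule. A rescaling shifts all miRNAs of a run alike, apart from the pseudocount. Differences from the median of all miRNAs are therefore nearly fixed over scalings, and their narrow ranges are no check of the result. Set against that median, in the deposited scaling and 3 others, miR-10a-5p stood 1.34 to 1.49 higher in collecting duct than in glomerulus. It stood 1.17 to 1.27 higher in thick ascending limb than in glomerulus. By the same measure it stood 1.28 to 1.33 higher in collecting duct than in proximal tubule and 1.03 to 1.13 higher in thick ascending limb than in proximal tubule. The remaining pairs were near the median: 0.08 to 0.11 for collecting duct over thick ascending limb and 0.06 to 0.19 for proximal tubule over glomerulus. When the values were rescaled by the median of ratios, collecting duct over proximal tubule (1.16, adjusted p = 0.000129) and thick ascending limb over proximal tubule (1.15, adjusted p = 0.000396) passed, where 21.8% and 11.7% of all miRNAs were called.

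**Figure D2:**
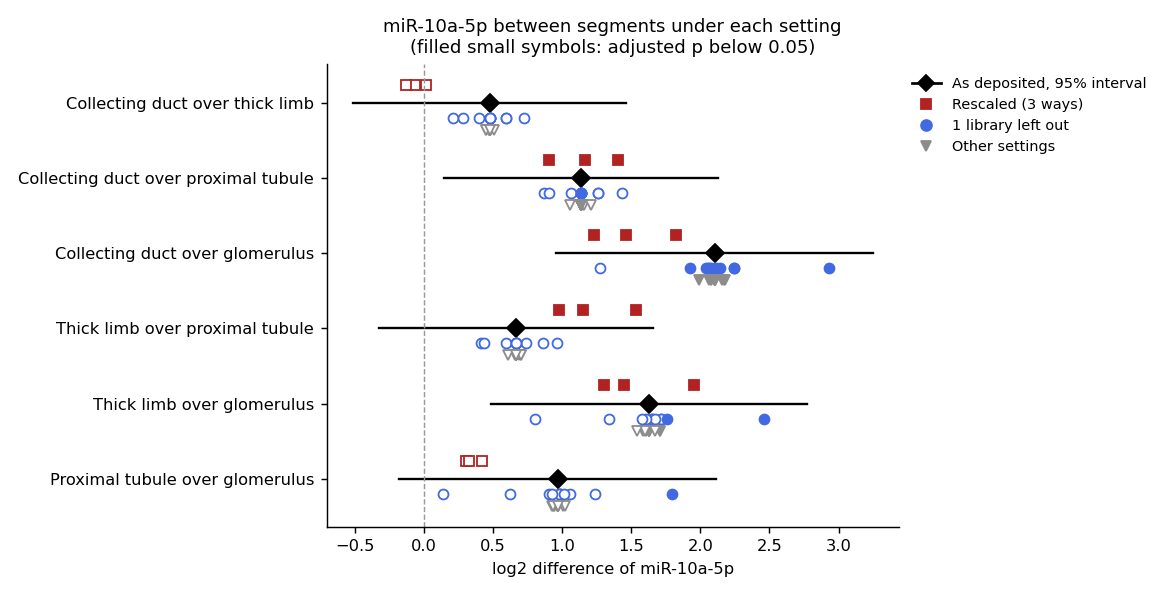
Difference of miR-10a-5p (horizontal axis, log2) in each of the 6 pairs of segments, with the value and 95% interval from the deposited scaling (black diamonds), 3 rescalings (squares), fits without 1 library (circles) and other settings (triangles); filled small symbols passed at an adjusted p below 0.05. Collecting duct over thick ascending limb is -0.13 to 0.02 on rescaling, while both segments stay above proximal tubule and glomerulus under every setting drawn.

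As a share of the summed value of a library, miR-10a-5p made up 50.5%, 46.8% and 43.7% in collecting duct and 49.0%, 48.6% and 49.9% in thick ascending limb. The shares were 25.3%, 23.0% and 26.9% in proximal tubule and 22.8% and 18.1% in glomerulus. Every collecting duct and thick ascending limb library thus held a larger share than any proximal tubule or glomerulus library, and the share does not depend on scaling between libraries. It is a share of the 188 miRNAs of the table, and no test was run on it. The next most abundant miRNA was miR-192-5p in the proximal tubule of rats 1 and 2 and miR-22-3p elsewhere, and miR-10a-5p exceeded it 4.67- to 8.30-fold in collecting duct and thick ascending limb, and 1.25- to 1.79-fold in proximal tubule and glomerulus.

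**Figure D3:**
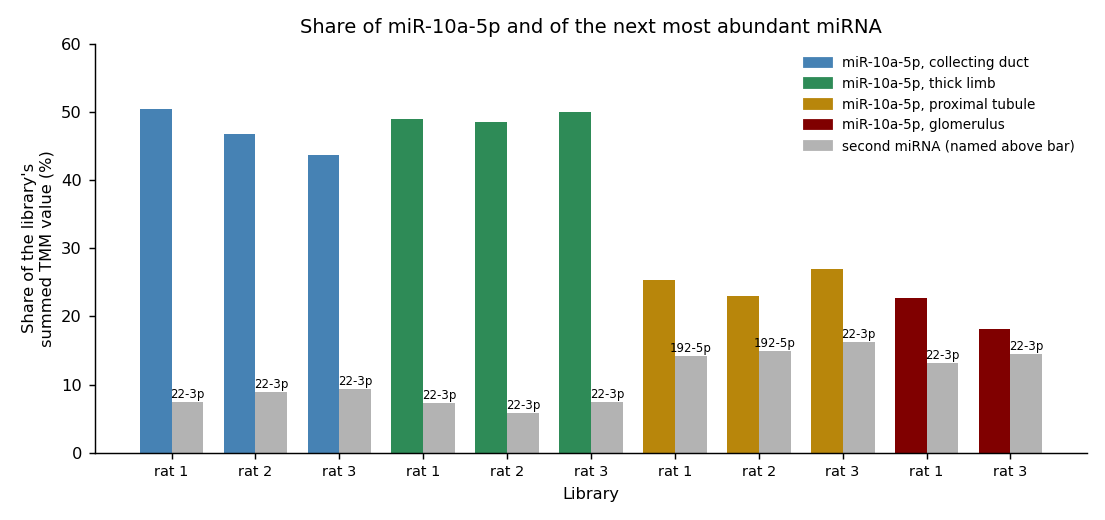
Share of the summed value of each library (vertical axis, percent, from 0) taken by miR-10a-5p (coloured bars) and by the next most abundant miRNA (grey bars, named above), with 1 pair of bars per library. miR-10a-5p takes 43.7% to 50.5% in collecting duct and thick ascending limb and 18.1% to 26.9% in proximal tubule and glomerulus.

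Of the tubule epithelial markers, 4 of the 5 on that list were in the table: miR-141-3p, miR-200a-3p, miR-200b-3p and miR-429. Like the mean of miR-10a-5p, their sum was highest in collecting duct and lowest in glomerulus. Its ranges in thick ascending limb and proximal tubule overlapped widely. The sum was 827 to 1595 in collecting duct, 412 to 792 in thick ascending limb and 429 to 673 in proximal tubule. In glomerulus it was 36.1 to 128, with miR-200a-3p at 0 in rat 3. The part of these markers in the difference of miR-10a-5p was not tested.

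rno-miR-10a-3p, the opposite strand of the same hairpin, was far less abundant. It had 67.2, 28.6 and 47.3 in collecting duct, 10.7, 6.99 and 34.9 in thick ascending limb, 10.9, 21.6 and 33.4 in proximal tubule and 16.2 and 6.20 in glomerulus. Within each rat its collecting duct value was the highest of that rat, and the collecting duct libraries overlapped those of the other tubule segments but not those of the glomerulus. The estimated reads behind it ran from 11 to 268 per library. It did not pass the F-test (adjusted p = 0.161), nor collecting duct over glomerulus, where the difference was 2.38 ± 0.95 (adjusted p = 0.0648). Without the glomerulus library of rat 1 that difference was 3.55 (adjusted p = 0.00313), and without that of rat 3 it was 1.21 (adjusted p = 0.530).

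The ratio of the strands puts 5p against 3p within 1 library. Ratios were taken as differences of log2(value + 1), averaged over the runs of a library, so that scaling between libraries cancels in part and the pseudocount of 1 lowers the ratio most where the 3p strand is scarce. On that scale, miR-10a-5p exceeded miR-10a-3p 1361-, 4131- and 1733-fold in collecting duct, and 6010-, 7474- and 2398-fold in thick ascending limb. It exceeded it 3294-, 1770- and 1704-fold in proximal tubule, and 2198- and 2250-fold in glomerulus. In each rat the thick ascending limb had the highest ratio, but the segments did not differ in an exact permutation test of segment labels within rats (p = 0.212, adjusted p = 0.318 over 3 ratios tested), while libraries of 1 segment spread as widely as 2398- to 7474-fold.

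rno-miR-10b-5p, the strand of the Hoxd cluster gene Mir10b that matches miR-10a-5p, passed no comparison between segments as deposited. It had 40.0, 65.3 and 49.1 in collecting duct, 41.3, 44.8 and 64.5 in thick ascending limb, 22.3, 31.1 and 41.1 in proximal tubule and 46.7 and 19.4 in glomerulus. The thick ascending limb libraries lay just above those of the proximal tubule, and every other pair of segments overlapped. Those levels rest on 37 to 500 estimated reads per library; the lowest, 37 in the glomerulus of rat 3, has a 95% Poisson interval of 26.1 to 51.0, which covers counting error only. In the F-test it did not pass (adjusted p = 0.747). The difference was 0.66 ± 0.81 for collecting duct over glomerulus (95% interval -0.93 to 2.25; adjusted p = 0.646) and 0.67 ± 0.70 for thick ascending limb over proximal tubule (95% interval -0.71 to 2.05; adjusted p = 0.758), so differences of the size seen for miR-10a-5p lay within both intervals. After rescaling to the same total without miR-10a-5p, thick ascending limb over proximal tubule passed at 1.52 (adjusted p = 0.0200), where 16.5% of all miRNAs were called, and so did the F-test (adjusted p = 0.0446), where 37.2% were called; under the other 2 rescalings neither passed.

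Whether the 2 guide strands of the family moved apart was therefore asked of their ratio in each library. These strands differ at 1 of 21 aligned bases, and how reads that match both were assigned is not given. How far miR-10a-5p reads entered the low miR-10b-5p values was not tested. miR-10a-5p exceeded miR-10b-5p 2358-, 1810- and 1635-fold in collecting duct, and 1741-, 1241- and 1316-fold in thick ascending limb. The ratio was 1662-, 1242- and 1402-fold in proximal tubule, and 796- and 690-fold in glomerulus. Both glomerulus ratios lay under all 9 tubule ratios, and in all 3 rats the ratio was higher in collecting duct than in thick ascending limb and in proximal tubule. On the log2 scale it averaged 10.90 ± 0.27, 10.47 ± 0.26 and 10.48 ± 0.21 in collecting duct, thick ascending limb and proximal tubule (SD, n = 3 each) and 9.53 ± 0.15 in glomerulus (SD, n = 2).

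The ratio differed among the segments in the exact permutation test within rats (p = 0.00521 over 3456 arrangements, adjusted p = 0.0156 over 3 ratios). Within rats the ratio was 0.31 to 0.54 higher (log2) in collecting duct than in thick ascending limb, 0.22 to 0.54 higher in collecting duct than in proximal tubule, and 0.93 to 1.57 higher in the 3 tubule segments than in glomerulus. Thick ascending limb and proximal tubule differed by -0.09 to 0.07. No single pair could pass on its own, since 3 rats allow an exact sign-flip p no lower than 0.25 and 2 rats none under 0.5. With either glomerulus library left out the adjusted p was 0.0625.

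**Figure D4:**
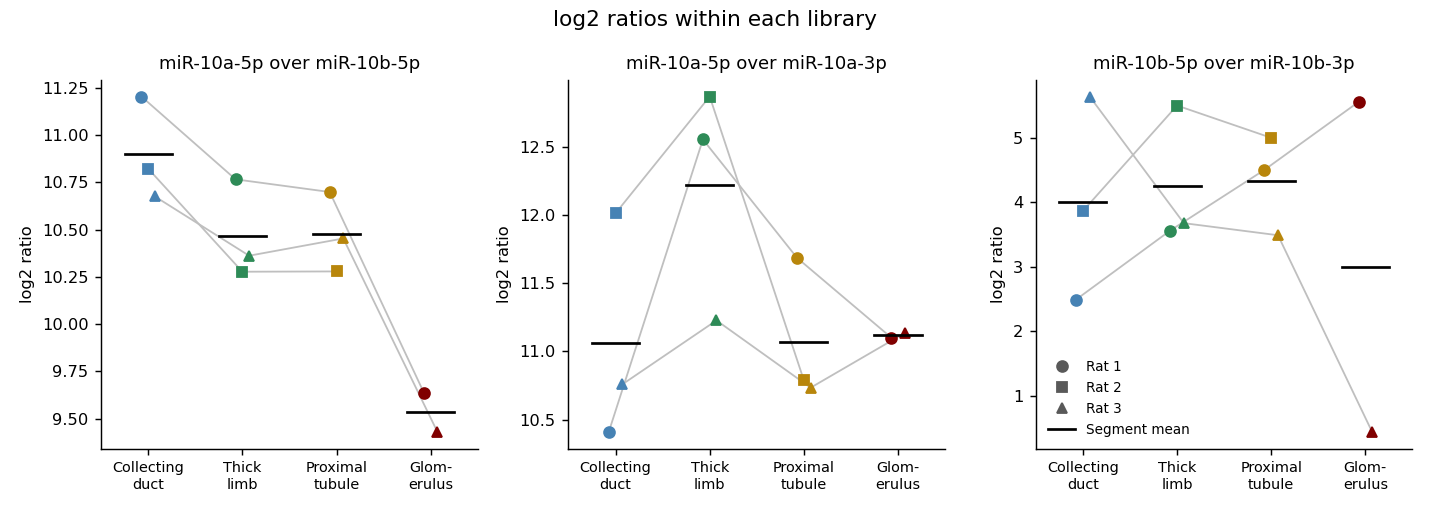
log2 ratio (vertical axes, each with its own range) of miR-10a-5p over miR-10b-5p, miR-10a-5p over miR-10a-3p, and miR-10b-5p over miR-10b-3p in each library, by segment, with symbols by rat, grey lines joining libraries of 1 rat and black bars at segment means. The ratio of miR-10a-5p over miR-10b-5p falls to 9.43 and 9.64 in glomerulus, against 10.28 to 11.20 in the tubule segments; the ratio of miR-10b-5p over miR-10b-3p is set by the pseudocount of 1 in the 5 libraries where miR-10b-3p is 0.

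rno-miR-10b-3p, the opposite strand of miR-10b, was near the limit of detection, with 0 in all 4 runs of 5 libraries. It had 6.19, 4.91 and 0 in collecting duct, 3.32, 0 and 4.26 in thick ascending limb, 0, 0 and 5.97 in proximal tubule and 0 and 14.4 in glomerulus. A 0 allows a value of up to 0.571 to 1.08, taking 3 reads as the limit that a count of 0 allows. The highest value, 14.4 in the glomerulus of rat 3, rests on 26 estimated reads (95% Poisson interval 17.0 to 38.1), and in that library alone the 3p strand came close to the 5p strand, with a log2 ratio of 5p over 3p of 0.44, against 2.49 to 3.87 in the 5 other libraries where the 3p strand was above 0. In the 5 libraries at 0 the ratio is set by the pseudocount of 1. Segments did not differ in the F-test (adjusted p = 0.835) or in the ratio of the strands (exact permutation p = 0.958, adjusted p = 0.958 over 3 ratios), a test that includes those 5 libraries.

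The miR-196 strands, from the Hoxa, Hoxb and Hoxc clusters, reached 73.6 at most in any library. miR-196a-5p had 46.6, 36.5 and 22.4 in collecting duct, 29.1, 25.1 and 28.1 in thick ascending limb, 10.7, 57.8 and 64.0 in proximal tubule and 28.4 and 11.4 in glomerulus. The proximal tubule held both its lowest and its highest library, so the groups overlapped throughout. It did not pass the F-test (adjusted p = 0.854).

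Mean levels of miR-196b-5p ran through the segments in the reverse order to those of miR-10a-5p. It had 36.9, 29.8 and 11.3 in collecting duct, 40.7, 36.1 and 49.9 in thick ascending limb, 37.6, 31.6 and 73.4 in proximal tubule and 73.6 and 57.3 in glomerulus. Both glomerulus libraries lay above all libraries of collecting duct and thick ascending limb, and the proximal tubule of rat 3 reached the glomerulus level. In every rat its collecting duct value was the lowest of that rat. Against proximal tubule the margin was small in rat 1 (36.9 against 37.6) and rat 2 (29.8 against 31.6). The SD between runs of those collecting duct libraries was 7.13 and 10.6. As deposited, miR-196b-5p passed neither the F-test (adjusted p = 0.497) nor collecting duct over glomerulus, at -1.36 ± 0.81 (95% interval -2.96 to 0.24; adjusted p = 0.267). This difference did pass after rescaling by the median of ratios (-1.98, adjusted p = 0.0202, where 23.4% of all miRNAs were called) or to the same total (-2.21, adjusted p = 0.00920, where 26.6% were called). It did not pass after rescaling to the same total without miR-10a-5p (-1.63, adjusted p = 0.0537). As deposited but without the collecting duct library of rat 3 it was -0.61 (adjusted p = 0.761).

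miR-196c-5p was the scarcest member by its highest value. It had 7.42, 11.2 and 0 in collecting duct, 2.21, 0 and 11.5 in thick ascending limb, 0, 0 and 5.92 in proximal tubule and 0 in both glomerulus libraries. In 6 libraries it was at 0 in all 4 runs, which allows up to 0.571 to 1.57. The floor of 3 reads in each glomerulus library gives a mean value of 1.09. With glomerulus at that floor, the mean of miR-196c-5p was 5.69-fold higher in collecting duct and 4.18-fold higher in thick ascending limb. These folds bound the glomerulus side only, and both of those segments also held a library at 0. The thick ascending limb mean rested mostly on rat 3, with 80 estimated reads against 4 and 0. Of the 2 rats with both segments, collecting duct lay above glomerulus in 1, and both were 0 in rat 3. miR-196c-5p did not pass the F-test (adjusted p = 0.421) or collecting duct over glomerulus (adjusted p = 0.215). That pair passed without the collecting duct library of rat 3, which was at 0 (adjusted p = 0.0229).

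Over the 6 members other than miR-10a-5p, 0 of 36 comparisons between segments passed in limma as deposited, with a lowest adjusted p of 0.0648; the shares of all miRNAs called in the same pairs were 2.13% to 17.6%. Runs of 1 library on the 4 flow cells had a median SD, in log2 units, of 0.06 for miR-10a-5p, 0.23 for miR-10b-5p and 0.36 for miR-10a-3p. Together the 6 scarce members made up 0.0547% to 0.140% of a library's summed value, and miR-10a-5p 99.2% to 99.9% of that of the 7.

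Relatives of the family by sequence or locus gave another 10 miRNAs of the table: miR-100-5p, the arms of miR-99a, miR-99b, miR-125a and miR-125b, and miR-615 of the Hoxc cluster. None passed the F-test (adjusted p 0.290 to 0.976), where 24.5% of all miRNAs were called. Of their 60 comparisons between segments 0 passed, with a lowest adjusted p of 0.133, where 2.13% to 17.6% of all miRNAs were called in a pair. miR-100-5p, which differs from miR-10a-5p by C3A, U6C and U18C over 22 aligned bases, had 77.7, 87.6 and 66.3 in collecting duct, 81.8, 81.2 and 93.6 in thick ascending limb, 57.3, 63.9 and 69.8 in proximal tubule and 124.8 and 39.4 in glomerulus. Its glomerulus values enclosed those of all the tubule libraries. miR-615, whose gene lies in the Hoxc cluster within the spans of Hoxc6 and Hoxc5, was at 0 in 4 of the 11 libraries and reached 14.5 at most.

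The miRNAs whose log2 values ran most like those of miR-10a-5p over the 11 libraries were miR-210-3p (Pearson's r = 0.984), miR-3574 with identical values, miR-141-3p (0.923), miR-200b-3p (0.919) and miR-423-3p (0.889). Of these, miR-210-3p, known as induced by hypoxia, had 22.4 to 42.0 in collecting duct, 9.33 to 18.4 in thick ascending limb, 2.94 to 8.75 in proximal tubule and 0 to 4.76 in glomerulus. miR-141-3p, of the epithelial miR-200 family, had 230 to 418 in collecting duct, 69.5 to 149.6 in thick ascending limb, 6.85 to 81.9 in proximal tubule and 2.89 to 4.71 in glomerulus. Mean levels of both followed the same order of segments as those of miR-10a-5p. For the other epithelial markers, thick ascending limb and proximal tubule overlapped. There miR-200a-3p had 38.8 to 120 and 93.2 to 110, and miR-200b-3p had 217 to 315 and 215 to 310. In the same segments miR-429 had 86.5 to 207 and 97.6 to 178. Most like miR-10b-5p were miR-221-3p (0.907), miR-210-3p and miR-3574 (0.835 each), miR-10a-5p (0.822) and miR-125a-5p (0.804). miR-10b-5p came at place 18 of 187 in likeness to miR-10a-5p, and miR-196b-5p at place 171 (r = -0.412). The points of each r share rats, depth and scaling, so the values are descriptions. For r, rescaling by the median of ratios was a setting chosen after the data were seen. After it, r with miR-10a-5p was 0.923 for miR-210-3p, 0.939 for miR-141-3p, 0.803 for miR-200b-3p and 0.787 for miR-423-3p. Between miR-10a-5p and miR-10b-5p it was 0.654. With miR-10b-5p it was 0.618 for miR-221-3p, 0.490 for miR-210-3p and 0.675 for miR-125a-5p.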

How the data were processed

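The data are small RNA libraries of laser-captured rat nephron segments, run on 4 flow cells. What the authors deposited is a TMM-scaled signal: read counts normalised between runs, after removal of low miRNAs, as the name of the table says. Partek 6.0, Bowtie2 2.2.5, Bowtie 1.0.0 and genome build rn6 are listed per the submitters' processing notes; the settings are not given in the sources used here. Values were used as deposited, in 44 runs of 11 libraries.

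In each run most low values were multiples of a step, taken as 1 read: up to 30 reads, 88.3% to 99.0% of them were whole to within 0.03 of a read. The read estimates rest on this step and leave out reads outside the table. Since the other values were fractions, no count test was run. Poisson and floor values cover counting error only, since reads copied by PCR are not independent molecules.

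Values were averaged over the 4 runs of a library, so n counts rats. Tests used the mean of log2(value + 1) over runs in limma 3.58.1 (R 4.3.3), with segment and rat as terms and a variance trend, and Benjamini-Hochberg adjustment over 188 miRNAs at 0.05, two-sided. A difference on this scale understates the change of low miRNAs. The fit left 5 residual degrees of freedom and an infinite prior, so miRNAs of like abundance share 1 variance. Ratios were tested by exact permutation of segment labels within rats.

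By their labels, libraries of 1 rat come from the same animal, which is where the pairing comes from. The deviations of same-rat libraries correlated weakly, with a median r of 0.03 (15 pairs, 11 above 0), against -0.01 (30 pairs) between different rats.

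The members and lists were chosen with earlier results of these data known. Named were all members, relatives by sequence or Hox locus, the 5 miRNAs most correlated with each of miR-10a-5p and miR-10b-5p, miRNAs sharing a member's seed, and marker miRNAs. Coordinates are not given, since sequences and gene neighbours come from GRCr8 and the values from rn6. Procedures were tested on simulated data. Alternatives covered pseudocounts 0.5 and 5, a filter at a mean of 10, 3 rescalings, no variance trend, other uses of the rat, array weights, averaging of runs, single flow cells, tubule segments alone and each library left out.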

Additional observations from a re-analysis of the deposited data

How the results depend on the processing

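Shares of miR-10a-5p moved by less than the spread between rats with each flow cell alone. Its F-test was lost without a variance trend (adjusted p = 0.174) and ranged from 2.05e-06 to 0.0953 with 1 library left out. Collecting duct over thick ascending limb reversed to -0.069 (same total) and -0.129 (same total without miR-10a-5p). Collecting duct over proximal tubule came to pass at 1.16 (median of ratios), 0.91 (same total), 1.41 (same total without miR-10a-5p), 1.15 (array weights) and 1.14 (tubule segments alone); it was 0.87 to 1.43 with 1 library left out, and passed with either glomerulus library left out. Thick ascending limb over proximal tubule came to pass at 1.15, 0.98 and 1.54 under the 3 rescalings. Collecting duct over glomerulus was lost at 2.10 without a variance trend, and was 1.27 to 2.93 with 1 library left out. Thick ascending limb over glomerulus was lost at 1.63 (pseudocount 0.5, and no variance trend), 1.71 (array weights), 1.60, 1.54 and 1.67 (flow cells B, C and D alone), and was 0.80 to 2.46 with 1 library left out. Proximal tubule over glomerulus, 0.14 to 1.79 with 1 library left out, passed without the glomerulus library of rat 1. The ratio of miR-10a-5p to miR-10b-5p was lost with flow cell A alone (adjusted p = 0.0885). In tubule segments alone it was lost too (exact permutation p = 0.0833, adjusted p = 0.250). The tubule setting has 216 arrangements and allows no p under 0.0278 before adjustment over 3 ratios. This ratio could therefore not pass there on its own, and its loss does not show that the tubule segments are alike. The adjusted p was 0.0208 to 0.0625 over left-out libraries. miR-10b-5p in collecting duct over glomerulus reversed to -0.19 (same total) and was -0.26 to 1.58 with 1 library left out. The causes were not tested.

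Of the 6 other members, 9 of 942 alternative pair values (0.955%) and 3 of 160 F-tests (1.88%) passed, against 12.01% and 25.9% over all miRNAs tested in these alternatives, and 68 uncalled pair values changed sign. For collecting duct over glomerulus, miR-10a-3p passed in 5 alternatives, at 1.93 (pseudocount 5), 2.38 (mean of at least 10), 2.16 (same total without miR-10a-5p), 2.91 (flow cell C) and 3.55 (without the glomerulus library of rat 1), miR-196b-5p in 2 rescalings (-1.98 and -2.21) and miR-196c-5p without the collecting duct library of rat 3. miR-10b-5p passed in thick ascending limb over proximal tubule (1.52, same total without miR-10a-5p). The F-tests were those of miR-10a-3p with the rat 1 glomerulus left out (adjusted p = 0.0105), miR-10b-5p (0.0446, same total without miR-10a-5p) and miR-196b-5p (0.030, same total).

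Without the rat as a replicate block, miR-10a-5p in collecting duct over glomerulus was 2.08, and the count of miRNAs called for collecting duct over thick ascending limb was 7 against 4; the block changed no call of a member.

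Counts of miRNAs called depended on settings as follows. Among the 4 segments, 46 became 70 and 70 (same total, with and without miR-10a-5p) and 28 (flow cell D), and 33 to 85 with 1 library left out. Collecting duct over thick ascending limb gave 9 (median of ratios), 8 (same total without miR-10a-5p), 1 (no trend, random replicate block, or flow cell D), 20 (array weights), 26 (tubules alone) and 0 to 26 (left out). Collecting duct over proximal tubule, 19, gave 41, 38 and 44 (rescaled), 11 (random replicate block), 42 (array weights), 41 (tubules alone) and 10 to 40. Collecting duct over glomerulus, 28, gave 44, 50 and 48 (rescaled), 16 (array weights) and 20 to 67. Thick ascending limb over proximal tubule, 15, gave 31 (same total without miR-10a-5p), 8 (no trend), 43 (array weights), 9 and 5 (flow cells B and D), 39 (tubules alone) and 5 to 37. Thick ascending limb over glomerulus, 21, gave 45, 43 and 50 (rescaled), 13 (array weights) and 15 to 44. Proximal tubule over glomerulus, 33, gave 51 and 50 (median of ratios, same total), 15 (array weights), 18 (flow cell D) and 20 to 73. With the median of ratios the split of higher to lower calls was 22 to 22 for collecting duct over glomerulus, against 21 to 7 as deposited, 24 to 21 against 15 to 6 for thick ascending limb over glomerulus, 29 to 22 against 26 to 7 for proximal tubule over glomerulus, 5 to 4 against 4 to 0 for collecting duct over thick ascending limb, 22 to 19 against 8 to 11 for collecting duct over proximal tubule, and 8 to 14 against 2 to 13 for thick ascending limb over proximal tubule.

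Depth limits the 6 scarce members most, with 0 to 500 estimated reads per library, and 2 glomerulus libraries limit every comparison with that segment.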

Other observations

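The 7 letters of the miR-196 seed, AGGUAGU, occurred in 11 of the 172 miRNAs of the table with a RefSeq sequence, searched on the miRNA strand only. They were the 3 miR-196 strands and 8 miRNAs of the let-7 and miR-98 group, in which they do not stand at bases 2 to 8. The let-7 and miR-98 strands were far more abundant, and miR-196 made up 0.976%, 0.570% and 0.368% of the summed value of the 11 miRNAs in collecting duct, and 0.907%, 0.974% and 0.926% in thick ascending limb. It made up 0.434%, 0.797% and 0.967% in proximal tubule, and 0.858% and 2.47% in glomerulus. The glomerulus library of rat 3 stood apart, with a let-7 and miR-98 sum of 2707 against 6230 to 14673 in the 10 other libraries. Its miR-196 sum of 68.6 lay within their range of 33.7 to 143, though its summed value over all miRNAs was the lowest (77457). As a share of that summed value, its miR-196b-5p (0.0739%) was the highest of any library. The share of its miR-196a-5p (0.0147%) lay within the range of the others.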
